A study of Mus musculus with 6 samples.

Results

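The genes described here are 10 components of the Notch pathway in mouse BMSCs, namely the receptors Notch1, Notch2, Notch3 and Notch4, the ligands Jag1, Jag2 and Dll4, and the target genes Hes1, Hey1 and Heyl. They were chosen by gene name among the 25722 genes of the count tables, without use of their values, and all 10 had a row. BMSCs, the study's name for these cultures, are adherent cells grown from the bone marrow of wild-type C57BL/6 mice. RNA was sequenced from 3 control libraries that received DMSO, the solvent, and from 3 libraries that received all-trans retinoic acid (RA, ATRA in the labels), the vitamin A metabolite that activates nuclear retinoic acid receptors. The labels give 1 μM RA for 48 h, whereas the study's methods name a lower concentration and a shorter time. Both groups were grown in low oxygen with a ROCK inhibitor and without added cytokine. The labels speak of 2 biological replicates although each group has 3 libraries, and do not say which libraries came from separate cultures, so the p-values measure the spread between libraries, which may be technical.

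Notch receptors are single-pass membrane proteins that bind ligands of the Jagged and Delta-like families on a neighbouring cell. Ligand binding exposes the receptor to ADAM proteases and then to γ-secretase, and the released intracellular domain joins Rbpj and a Mastermind protein on DNA to switch on repressors of the Hes and Hey families. In bone marrow the pathway is known for its part in communication between stromal, endothelial and blood-forming cells, and Hes and Hey proteins are known to restrain osteoblast differentiation.

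Each library held 14737636 to 18511905 counts, at which 3 counts correspond to 0.162 to 0.204 CPM, the counts scaled to the total of the library. Retinoid response genes served as a check of the treatment, and 8 of 8 had a fitted value above 0 with RA, against 6549 of all 13842 tested genes. Of the 8, 2 were called (0.0433% of all genes) and 7 had every RA library above the controls (5.71% of all genes). Their summed level was 213 to 237 CPM in the controls and 541 to 588 CPM in the RA libraries. Cyp26b1, which encodes an enzyme that degrades RA, rose by 4.35 on the log2 scale (edgeR adjusted p = 0.00207). The libraries also fell into sets that crossed the treatment, with control 2, RA 1 and RA 2 (set 1) on the same side of the first principal component (57.2% of the variance) and control 1, control 3 and RA 3 (set 2) on the other. These library sets were read from the expression values and are no label of the study. The cell type label was checked against marker genes, and 14 macrophage markers had a median percentile of 98.6 to 99.2 among the tested genes in each library, against 49.3 to 64.8 for the stromal markers and 4.75 to 8.27 for the endothelial markers. Levels varied widely within these lists. Among the stromal markers, Thy1 had 0 to 7 counts per library and Col1a1 6073 to 30985, and among the endothelial markers, Tek had 2 to 6 counts and Pecam1 61 to 200. By these medians the macrophage markers stood above the stromal markers in every library, so the levels given here cannot be assigned to stromal cells alone. In such bulk RNA, fewer cells of a type and less RNA per cell cannot be told apart.

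Notch2 was the most abundant of the 10 genes per length of exon, and Notch1 the next. On the scale of CPM per kilobase of exon, the mean level over the 6 libraries was 27.0 for Notch2, with a range of 20.7 to 36.7, and 9.39 for Notch1, with a range of 7.46 to 11.4. Notch2 thus stood at the 86.7 percentile of the tested genes and Notch1 at the 65.4 percentile. Jag1 (4.79 CPM per kilobase) and Notch3 (4.52) stood near the middle of all genes and could not be ordered, since Jag1 was the higher in 3 of 6 libraries. Hes1 had a mean of 2.25 CPM per kilobase and lay under Notch3 in 6 of 6 libraries, although their ranges overlapped (5 of 6 libraries per kilobase of the longest coding transcript). Notch4 (0.216), Jag2 (0.185) and Hey1 (0.142) were far lower and did not separate beyond their spread, Notch4 lying above Jag2 in 4 of 6 libraries and Jag2 above Hey1 in 5 of 6. Dll4 (0.0574) and Heyl (0.00815) were the lowest, and Dll4 lay above Heyl in 5 of 6 libraries.

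**Figure D1:**
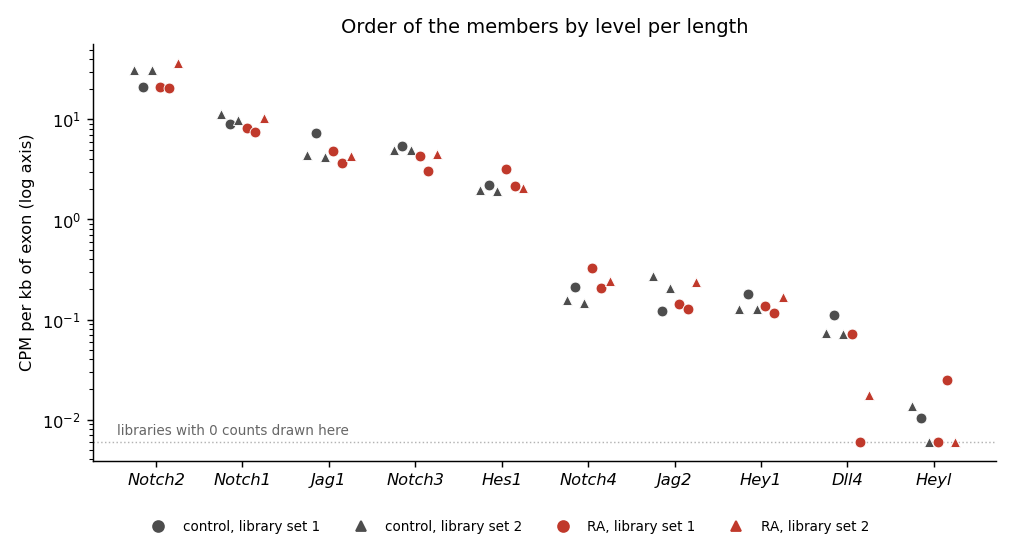
Level of the 10 genes in CPM per kilobase of exon, on a log axis, with 1 point per library, colour for the treatment and circles or triangles for library set 1 or 2; libraries with 0 counts are drawn on the dotted line. Notch2 lies highest, at 20.7 to 36.7, and Dll4 and Heyl lie lowest.

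RA was compared with the DMSO control to see whether the pathway's RNA changed with the treatment. Of the 10 genes, 7 passed the filter on low counts and were tested, and Dll4, Hey1 and Heyl did not. By the edgeR quasi-likelihood test, 0 of the 7 passed an adjusted p of 0.05 with a change of at least 1.5-fold, and 0 passed an unadjusted p of 0.05. Over all 13842 tested genes, the corresponding shares were 0.0433% and 5.25%. DESeq2, which called 0.983% of its 13831 genes, and edgeR's likelihood ratio test, which called 0.968% of genes, also called 0 of the 7. The fitted value was above 0 for 2 genes, Notch4 and Hes1, and below 0 for 5, with a median log2 fold change of -0.22 against -0.018 for all tested genes (7293 of 13842 below 0). A separate fit that adjusted for the library set called 1.54% of all genes and put 15.1% under an unadjusted p of 0.05, with 0 of the 7 under either. In that fit Notch2 and Jag2 also lay above 0, so that 4 genes were above and 3 below, and the median turned to 0.055 (-0.0041 for all genes).

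**Figure D2:**
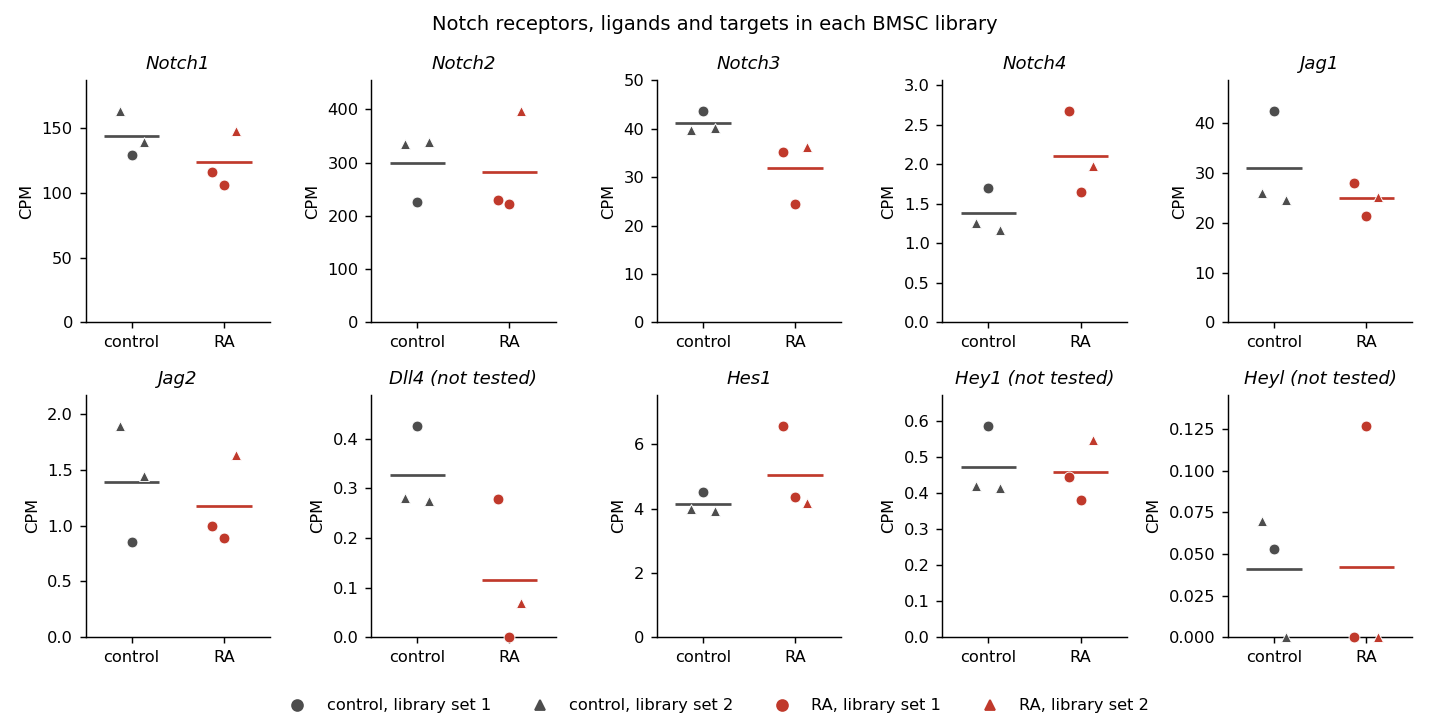
Level in CPM of the 10 genes in each library, on a separate scale per gene, with colour for the treatment, circles or triangles for library set 1 or 2, and a line at the mean of each group. The RA libraries lie under all controls for Notch3 (24.4 to 36.2 against 39.9 to 43.6 CPM) and overlap the controls for the other 9 genes.

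Among the receptors, the values of Notch1 and Notch2 overlapped between the groups. Notch1, a broadly expressed receptor, is on chromosome 2 of GRCm38 (26457903 to 26516663, minus strand). It stood at 163, 129 and 139 CPM in controls 1, 2 and 3 and at 116, 106 and 148 CPM in RA 1, 2 and 3. RA 3 lay between the controls while RA 1 and RA 2 lay under them. The means were 144 ± 17.2 and 124 ± 21.8 CPM (SD, n = 3 each), and the log2 fold change was -0.22 (SE 0.16, 95% interval -0.61 to 0.17, edgeR adjusted p = 0.803). It was -0.12 after adjustment for the library set (edgeR adjusted p = 0.550), -0.22 within set 1 and -0.030 within set 2. Without control 1 or without RA 2 it was -0.12, and without control 2 it was -0.28.

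Notch2, a close relative of Notch1, is on chromosome 3 (98013527 to 98150361, plus strand). Its levels were 335, 226 and 339 CPM in the controls and 230, 223 and 396 CPM in the RA libraries. Control 2, RA 1 and RA 2 were low and the other libraries high. The values thus overlapped between the groups and not between the library sets, the latter as was so for 47.7% of all tested genes. The group means were 300.0 ± 64.0 and 283 ± 97.9 CPM (SD, n = 3 each), with a log2 fold change of -0.084 (SE 0.28, 95% interval -0.74 to 0.58, edgeR adjusted p = 0.944). Adjusted for the library set, the log2 fold change of Notch2 turned to 0.12, and its 95% interval narrowed to -0.070 to 0.31 (edgeR adjusted p = 0.502). Leaving out control 1, control 3, RA 1 or RA 2 also turned the direction, and the values without 1 library ran from -0.41 to 0.068.

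Notch3, the receptor best known from vascular smooth muscle and pericytes, was the only tested gene of the 10 whose groups did not overlap. It is on chromosome 17 (32120820 to 32166852, minus strand). Control values were 39.9, 43.6 and 40.1 CPM and RA values 35.2, 24.4 and 36.2 CPM. All 3 RA libraries lay under all controls, as was so for 6.87% of all tested genes, and RA 2 was the lowest. The mean was 41.2 ± 2.10 CPM in the controls and 31.9 ± 6.53 CPM with RA (SD, n = 3 each), the log2 fold change was -0.37 (SE 0.17, 95% interval -0.78 to 0.051), and the edgeR adjusted p was 0.795. The value was -0.35 after adjustment for the library set (edgeR adjusted p = 0.359), -0.55 within control 2, RA 1 and RA 2, and -0.14 within the other set. Without RA 3, Notch3 had a log2 fold change of -0.47 and Notch1 of -0.37, and both then had an unadjusted edgeR p under 0.05 (0.0496 and 0.0476), with adjusted p of 0.345 and 0.343. That fit put 14.4% of all its 14155 tested genes under an unadjusted p of 0.05. Without RA 2, the lowest library, Notch3 was at -0.21. The summed level of 10 mural cell markers, the cells in which Notch3 is best known, was 566, 1382 and 617 CPM in the controls and 1278, 970 and 476 CPM in the RA libraries. Acta2 (257 to 835 CPM) and Tagln (117 to 355 CPM) made up most of this sum, which was high in control 2, RA 1 and RA 2. Of the 8 tested mural markers, 5 had a fitted value above 0 and 3 below, with a median log2 fold change of 0.098. Mcam (3.50, 4.79 and 3.85 CPM against 3.39, 2.03 and 2.46) was the only 1 of the 8 with all RA libraries under the controls, as was so for 6.87% of all tested genes. Cspg4 (15, 11 and 8 counts against 4, 3 and 5) also had all RA libraries under the controls, but did not pass the filter on low counts. The part of these markers in the Notch3 values was not tested.

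Notch4, a receptor known mainly from endothelium, had the largest difference of the 7 genes and low counts. It lies on chromosome 17 (34564268 to 34588503, plus strand). The controls had 18, 32 and 17 counts and the RA libraries 48, 26 and 29, that is 1.26, 1.70 and 1.17 CPM against 2.67, 1.65 and 1.98 CPM. RA 1 was the highest, and control 2 lay above RA 2, so the groups overlapped. The log2 fold change was 0.60 (SE 0.30, 95% interval -0.12 to 1.33, edgeR adjusted p = 0.795) and 0.51 after adjustment for the library set (edgeR adjusted p = 0.441). The summed level of 10 endothelial markers was 56.2 to 69.4 CPM in the controls and 58.0 to 67.5 CPM with RA, with only Esam at 0, in RA 2. Eng, which is also on the stromal list, made up 33.1 to 59.8 CPM of this sum, and the part of these markers in the Notch4 values was not tested.

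The 250 bases before the start of these genes are shown for the receptor whose groups did not overlap and the receptor with the largest difference, because RA receptors bind DNA as dimers at repeated hexamers. Sequences and starts are from RefSeq on GRCm38.p6, and these starts need not equal those of the GENCODE gene spans printed here. The windows of Notch1 and Jag2 lie inside their spans, those of Notch2, Notch4 and Jag1 reach into theirs, and those of Notch3 and Dll4 lie before theirs. Those shown are Notch3 from chr17:32166891-32167140 on the minus strand and Notch4 from chr17:34564045-34564294 on the plus strand, written 5′ to 3′ with matches to the searched letters in capitals.
Notch3: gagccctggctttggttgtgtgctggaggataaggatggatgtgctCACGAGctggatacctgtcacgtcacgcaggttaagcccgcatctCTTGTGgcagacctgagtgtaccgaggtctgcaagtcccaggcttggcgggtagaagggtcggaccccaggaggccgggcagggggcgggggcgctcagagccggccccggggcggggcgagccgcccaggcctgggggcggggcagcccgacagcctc
Notch4: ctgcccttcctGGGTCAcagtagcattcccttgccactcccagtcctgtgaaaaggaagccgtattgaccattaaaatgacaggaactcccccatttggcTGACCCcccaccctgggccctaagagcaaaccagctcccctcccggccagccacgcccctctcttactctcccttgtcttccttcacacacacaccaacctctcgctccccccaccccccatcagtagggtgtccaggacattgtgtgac
In Notch3 the capitals mark the Hes binding letters CACNAG, in which N is any base, on the plus strand 204 to 199 bases before the start and on the minus strand 159 to 154 bases before it. In Notch4 they mark the retinoid hexamer GGGTCA on the plus strand 239 to 234 bases before the start and on the minus strand 150 to 145 bases before it. Both strands were searched for 4 retinoid hexamers. These were the classical hexamer AGGTCA together with its variant GGGTCA as well as the hexamer AGTTCA together with its variant GGTTCA. The Rbpj core TGGGAA was searched as well, as were the Hes letters CACNAG and the TATA box TATAAA. Of 32817 promoters of that length, 11.6% held GGGTCA, 38.6% any of the retinoid hexamers, 21.6% the Rbpj core, 36.7% the Hes letters and 12.4% the TATA box. Of the 10 genes, 7 had a promoter in the table, all but Hes1, Hey1 and Heyl. CACNAG was found in Notch1, Notch2, Notch3 and Dll4, retinoid hexamers only in Notch4, and the Rbpj core and the TATA box in none of the 7. A match of letters is a description of the window and does not show that a protein binds there.

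Shares of the summed receptor level per length kept their order in every library. Notch2 made up 64.0% ± 4.65 of the 4 receptors in the controls and 66.4% ± 4.25 with RA (SD, n = 3 each). The shares were 23.5% ± 2.21 and 22.6% ± 2.19 for Notch1, and 12.1% ± 2.66 and 10.3% ± 2.15 for Notch3. Notch4 held 0.411% ± 0.157 in the controls and 0.698% ± 0.250 with RA. None of these differences in share was tested. The summed receptor level was 47.6, 35.7 and 46.3 CPM per kilobase in the controls and 34.2, 31.4 and 51.8 in the RA libraries, low in control 2, RA 1 and RA 2.

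**Figure D3:**
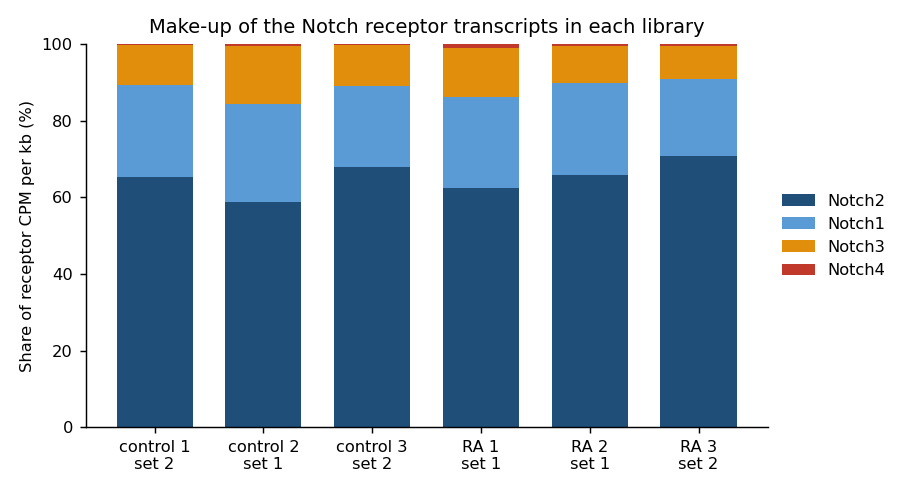
Share of each receptor in the summed receptor level (CPM per kilobase of exon, in percent), with 1 stacked bar per library and its library set under it. Notch2 takes 58.8% to 67.9% in the control libraries and 62.4% to 70.8% in the RA libraries.

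Jag1 was the main ligand RNA of the 3, at 94.5% ± 2.13 of their summed level per length in the controls and 95.6% ± 1.08 with RA (SD, n = 3 each). It encodes a Jagged family ligand that is expressed by many stromal cells, and lies on chromosome 2 (137081456 to 137116644, minus strand). Control values were 25.9, 42.3 and 24.5 CPM and RA values 28.0, 21.4 and 25.2 CPM. Control 2 stood above all other libraries, and the remaining 5 overlapped. The log2 fold change was -0.31 (SE 0.24, 95% interval -0.89 to 0.27, edgeR adjusted p = 0.803), and it was -0.40 after adjustment for the library set (edgeR adjusted p = 0.367) and -0.0049 without control 2. Within the set of control 2, RA 1 and RA 2 the value for Jag1 was -0.77, and within the other set 0.0027. The summed stromal markers were also highest in control 2, at 1924, 3759 and 2088 CPM in the controls against 2846, 1861 and 1421 CPM with RA. Col1a1 (414 to 1648 CPM) and Col1a2 (398 to 1390 CPM) made up most of this sum. Of the 10 tested stromal markers, 5 had a fitted value above 0 with RA and 5 below. The part of these markers in the Jag1 values was not tested.

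Jag2, the other Jagged family ligand (chromosome 12, 112907819 to 112929776, minus strand), had 14 to 27 counts in every library. Its levels were 1.89, 0.851 and 1.44 CPM in the controls and 1.00, 0.888 and 1.64 CPM with RA, overlapping throughout. The log2 fold change was -0.24 (SE 0.41, 95% interval -1.22 to 0.74, edgeR adjusted p = 0.889). It turned to 0.055 after adjustment for the library set and to 0.039 without control 1, and the values without 1 library ran down to -0.55 (without RA 3).

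Dll4, a Delta-like ligand known from endothelial tip cells (chromosome 2, 119325784 to 119335962, plus strand), had 4, 8 and 4 counts in the controls and 5, 0 and 1 in the RA libraries. RA 2 and RA 3 were under the 3-count floor and RA 1 was level with the controls. Without a filter on low counts the log2 fold change of Dll4 was -1.40 (SE 0.91, edgeR adjusted p = 0.745), a value that depends on the prior count.

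Of the target genes, Hes1 accounted for 93.1% ± 0.865 of the summed level per length in the controls and 94.1% ± 1.77 with RA (SD, n = 3 each). Hes1, a basic helix-loop-helix repressor that responds directly to the Notch intracellular domain, is on chromosome 16 (30064384 to 30067796, plus strand). It had 57, 85 and 57 counts in the controls and 118, 69 and 61 with RA, or 3.99, 4.52 and 3.92 CPM against 6.56, 4.37 and 4.16 CPM. RA 1 was high, and RA 2 and RA 3 lay within the range of the controls. The log2 fold change was 0.28 (SE 0.24, 95% interval -0.30 to 0.87, edgeR adjusted p = 0.804). Without RA 1 it was 0.064, and after adjustment for the library set 0.18 (edgeR adjusted p = 0.692).

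Hey1 and Heyl, the related repressors of the Hey family, were at or near the floor. Hey1 (chromosome 3, 8663359 to 8667256, minus strand) had 6, 11 and 6 counts in the controls and 8, 6 and 8 with RA, or 23 against 22 counts in all. Heyl (chromosome 4, 123233556 to 123249875, plus strand) had at most 2 counts in any library. Without a filter on low counts the log2 fold change of Hey1 was -0.064 (SE 0.49, edgeR adjusted p = 0.995), and a change of Heyl was not detectable at this depth.

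**Figure D4:**
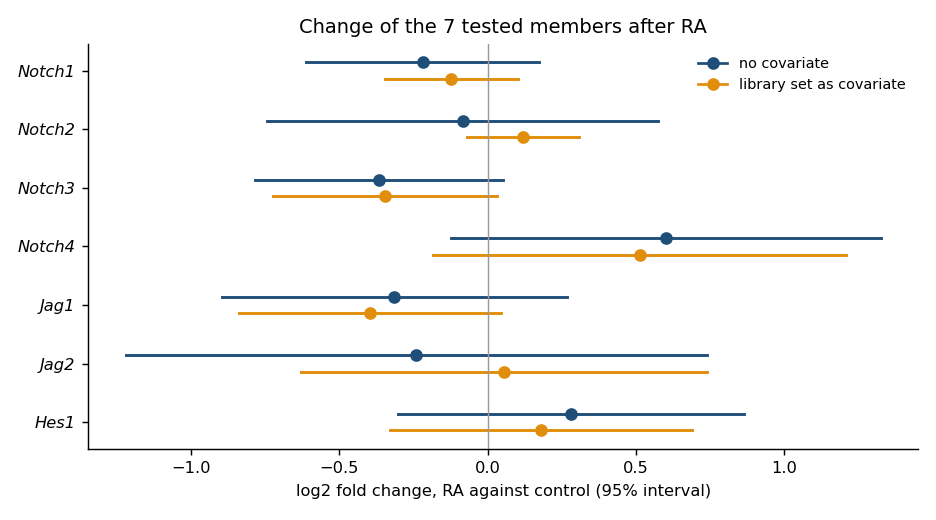
Log2 fold change of RA against control for the 7 tested genes, with 95% intervals as bars, fitted without and with adjustment for the library set. All intervals include 0, and that of Notch2 narrows from -0.74 to 0.58 down to -0.070 to 0.31.

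With regard to the library sets, 4 of the 7 tested genes did not overlap between the sets, Notch1, Notch2 and Jag2 being higher in control 1, control 3 and RA 3 and Hes1 in control 2, RA 1 and RA 2. That was also so for 47.7% of all tested genes.

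The other genes of the pathway were taken as a list. This list of 59 ligands, modifying enzymes, cofactors and regulators had 57 genes in the tables, of which 48 were tested, 20 with a fitted value above 0 and 28 below. By the edgeR quasi-likelihood test, 0 of the 48 were called, as against 0.0433% of all tested genes, 3 were higher and 2 lower at an unadjusted p under 0.05 (2.89% and 2.36% of all tested genes), and the median log2 fold change was -0.079. The RA libraries lay above all controls for 3 genes and below them for 8, shares to be read against 5.71% and 6.87% of all tested genes. After adjustment for the library set, 7 were higher and 3 lower at an unadjusted p under 0.05, against 6.7% and 8.44% of all tested genes, and 0 were called, as against 1.54%.

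Dlk2, a Delta-like protein without the domain that the classical ligands use to bind Notch, had the largest value of the list. It had 4, 1 and 2 counts in the controls and 18, 12 and 15 with RA, with no overlap. The log2 fold change was 2.57 (SE 0.54, 95% interval 1.29 to 3.85, edgeR adjusted p = 0.342). The edgeR likelihood ratio test called it (adjusted p = 0.00285), whereas DESeq2 did not (adjusted p = 0.133). Dlk2 passed the filter on low counts only through the RA libraries, so that a tested gene with such controls had to be higher with RA, and it was also among the 1000 genes from which the library sets were read.

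Among genes of receptor cleavage, 4 were above 0 and 6 below. Adam10, the main protease of the first ligand-dependent cut, was at 165, 205 and 174 CPM in the controls and 296, 281 and 189 CPM with RA. RA 3 lay below control 2, and the log2 fold change was 0.49 (edgeR adjusted p = 0.795). Adam10 was higher in all libraries of set 1 than in those of set 2, and its value was 0.33 after adjustment for the library set (edgeR adjusted p = 0.197), 0.49 within set 1 and 0.16 within set 2. Aph1c, a γ-secretase subunit whose reads may be shared with its close paralog Aph1b, was at 31.9, 7.76 and 34.3 CPM in the controls and 9.51, 13.6 and 45.4 CPM with RA. It was among the 1000 genes from which the library sets were read, so that its high values in set 2 are no finding. Its log2 fold change was -0.11 without adjustment for the sets.

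In the trafficking and turnover group, 6 genes were above 0 and 6 below. Numbl, a Numb family adaptor that directs Notch towards endocytosis, was at 28.6, 29.4 and 22.3 CPM in the controls and 20.96, 15.0 and 19.3 CPM with RA. Fbxw7, a ubiquitin ligase subunit that marks the intracellular domain for degradation, was at 14.1, 11.4 and 10.9 CPM against 14.2, 18.3 and 16.9 CPM. Neither gene overlapped between the groups, with log2 fold changes of -0.54 for Numbl and 0.44 for Fbxw7 (edgeR adjusted p = 0.795 for both). Itch, another ubiquitin ligase of Notch, was at 93.8, 78.6 and 101.6 CPM in the controls and 102.4, 113.5 and 145.9 CPM with RA, also without overlap. Its log2 fold change was 0.40 (edgeR adjusted p = 0.795), and after adjustment for the library set 0.52 (adjusted p = 0.0317), which is under the 1.5-fold limit.

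Among nuclear factors, 4 genes were above 0 and 4 below. Rbpj, the DNA-binding partner of the receptor domain, was at 302, 436 and 319 CPM in the controls and 426, 523 and 382 CPM with RA. The groups overlapped, and the log2 fold change was 0.33 (edgeR adjusted p = 0.795). Rbpj too was higher in all libraries of set 1, and its value was 0.21 after adjustment for the library set. The 4 tested Groucho corepressors, which Hes proteins recruit, were below 0 with a median of -0.28, but after adjustment for the library set Tle4 was at 0.046 and the median was -0.21. Of these, Tle2 was at 16.9, 16.7 and 16.7 CPM in the controls and 13.8, 11.5 and 13.6 CPM with RA, without overlap, and its log2 fold change was -0.37 (edgeR adjusted p = 0.795).

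**Figure D5:**
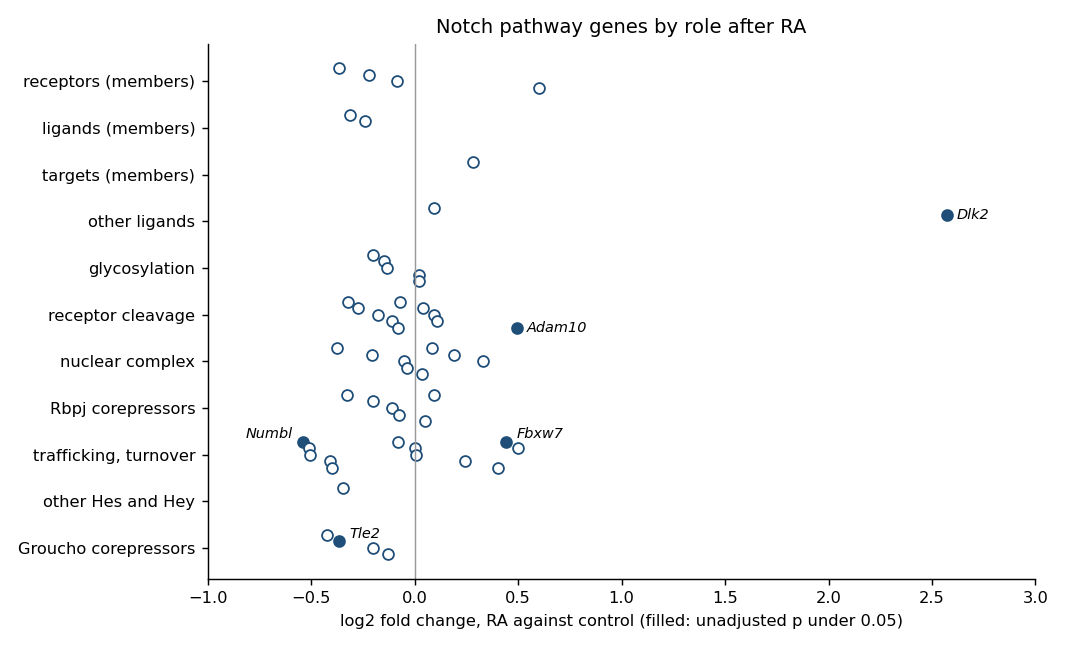
Log2 fold change of RA against control for the tested Notch pathway genes, grouped by role, with 1 point per gene and filled points for an unadjusted edgeR p under 0.05. Dlk2 stands apart at 2.57, and the other genes lie between -0.54 and 0.60.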

How the data were processed

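RNA sequencing of 6 mouse BMSC libraries was analysed from the raw counts of reads per gene that the authors deposited, 1 table per library and not normalized. The submitters' processing notes name Bowtie2 2.2.3 and mm10, without their role; the counting program and its strand setting are not given in the sources used here. Exons of Notch1, Notch2, Notch3 and Dll4 share bases with other annotated genes, so their counts are uncertain to that extent. Samples were grouped by title. Of 25722 identifiers, 25706 were in GENCODE M21 (GRCm38), which gave positions and exon lengths, and 24 names turned into dates were restored.

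Counts were scaled by TMM, filtered by filterByExpr (13842 genes kept) and compared with the quasi-likelihood F test of edgeR 4.0.16 in R 4.3.3, with the treatment as the only term. A call needed an adjusted p (Benjamini-Hochberg) under 0.05 and a change of 1.5-fold or more. CPM were computed with TMM-scaled totals. Levels between genes were compared per kilobase of all exons joined. Standard errors came from the log2 fold change and F. The library set is the side of a library on the first principal component, computed on the 1000 genes of highest variance, which include none of the 10 genes. With 3 libraries against 3, an exact two-sided permutation test cannot give a p under 0.10, so none was used. Alternatives were DESeq2 1.42.0, the edgeR likelihood ratio test, other scalings and filters, the replicate block, the library set as a covariate and leaving out each library. The longest coding transcript as the length was added after seeing the data. Intervals cover the spread between libraries, and PCR copies are not separate molecules, so the 3-count floor covers counting error only.

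The genes and lists were chosen with earlier results of these data known. All 10 genes are described; of the other pathway genes, the text names those under an unadjusted p of 0.05 or of the largest change in their role, and single genes picked from these, except 1 gene that is not reported here. The scripts were tested on simulated data.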

Additional observations from a re-analysis of the deposited data

How the results depend on the processing

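No setting called any of the 7 tested Notch genes. Of 112 values of these genes under other settings, 7 values from a test turned direction. Values within a library set, which had no test, also lay on the other side of 0 for Notch2 (0.0026 and 0.23 in sets 1 and 2), Jag1 (0.0027 in set 2, against -0.77 in set 1) and Jag2 (0.13 in set 1). The tested values that turned belong to Notch2 and Jag2: after adjustment for the library set, their log2 fold changes were 0.12 and 0.055, and with 1 library left out they ran from -0.41 to 0.068 for Notch2 and from -0.55 to 0.039 for Jag2. The cause was not tested. With 1 library left out, 0 to 2 of the 7 genes had an unadjusted p under 0.05, 2 of them without RA 3, where 14.4% of all tested genes did. The edgeR likelihood ratio test called 1 of the other pathway genes, Dlk2. With the replicate number as a block, 0 of the 7 and 0 of the other pathway genes were called by edgeR; same-numbered libraries had deviations that correlated at -0.51, 0.34 and 0.57, so the number does not pair them. The order of the 10 levels was the same per kilobase of the longest coding transcript, but Notch3 then lay above Hes1 in 5 and Notch4 above Jag2 in 3 of 6 libraries. Another scaling moved the median of all genes from -0.018 to 0.0042 or 0.025. Low counts limit Notch4 and Jag2 (14 to 48 counts) and leave Dll4, Hey1 and Heyl untested.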
